A study of Mus musculus with 6 samples.

Results

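Transcripts of 49 genes of DNA damage repair and of the signalling that accompanies it were followed through myogenic differentiation of C2C12 cells, an immortalized line of mouse myoblasts. The members were chosen by their symbol, with earlier results of these data known, and grouped by the repair route they are best known for: 18 genes of homologous recombination and the Fanconi pathway, 3 of mismatch repair, 8 of base excision repair, 8 of nucleotide excision repair, 5 of end joining and 7 of damage signalling. All 49 have at least 1 probe set annotated to that gene alone, out of 18193 genes that do, and together they hold 110 of the 45037 probe sets tested. Cells were harvested either while proliferating in 20% serum or on day 6 after the shift to 2% horse serum, with 3 RNA samples per group and 1 Affymetrix array per sample, all from the same unmodified line. Each RNA sample combined 3 pools of 3 culture plates, so the spread between arrays is one between pooled cultures, and the cultures on day 6 held mononucleated cells beside the myotubes. In such bulk RNA, fewer cells that carry a transcript and less of it per cell cannot be told apart.

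Homologous recombination copies the intact sister chromatid to mend a double-strand break and therefore works mainly while DNA is being replicated or afterwards, with Brca1 and Brca2 at its centre, and Fanconi proteins bring it to cross-linked DNA. End joining ligates broken ends in any phase of the cell cycle, including in cells that no longer divide. Mismatch repair corrects errors left by DNA polymerases, base excision repair replaces single damaged bases, and nucleotide excision repair removes bulky lesions such as those made by ultraviolet light.

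Of the 49 genes, 19 passed the test as lower and 1 as higher on day 6 (limma, adjusted p under 0.05 by Benjamini-Hochberg over all probe sets), and 29 did not pass. Among all 18193 genes represented in the same way, each by the probe set with the highest mean signal, 9.05% were lower and 8.67% higher. The median log2 fold change, differentiated minus proliferating on the signal plus 15, was -0.72 over the repair genes and 0.06 over all genes. Fitted values were below 0 for 38 of the 49, compared with 8265 of all 18193 genes. At an unadjusted p under 0.05 (limma), 29 repair genes were lower and 4 higher, compared with 2551 and 2794 of all 18193 genes. Of the 19 lower genes, 14 had a fitted fall of at least 2-fold and 7 of at least 4-fold on that scale. With 3 arrays per group, an exact permutation test of a single gene cannot go below p = 0.1, so all tests rest on limma's pooled estimate of the spread.

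**Figure D1:**
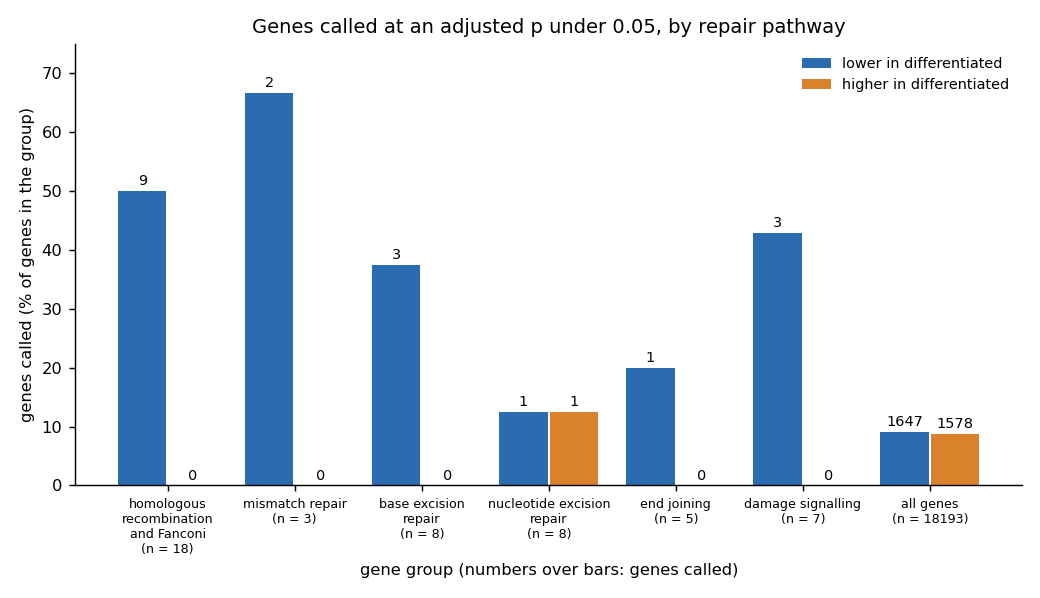
Share of genes called lower (blue) or higher (orange) in differentiated cells in each repair group and among all 18193 genes, in percent of the genes in the group, with the number called above each bar. Homologous recombination and Fanconi genes were called lower in 9 of 18 cases and never higher, and nucleotide excision repair was the 1 repair group with a call in each direction.

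Signals are linear MAS 5.0 intensities, comparable between arrays for 1 probe set but not between probe sets. The brightest of 27 probe sets for Bacillus subtilis transcripts, which mouse RNA should not light up, lay between 51.9 and 87.0 depending on the array, and a signal at or under that of its own array was read as background. By that limit 44 of the 49 genes were above background on every proliferating array and 35 on every differentiated array. The 7 genes with a fitted fall of at least 4-fold each had at most 1 differentiated array above background. The size of those 7 falls therefore rests largely on signals at background. Bard1, the partner of Brca1, was at background on all 6 arrays, so nothing can be said of its change. The 8 markers of differentiated muscle were all higher on day 6, with a summed signal of 775.6 to 912.3 on the proliferating and 55404.2 to 59109.6 on the differentiated arrays, and the 7 measured markers of dividing cells were all lower, from 25792.5 to 26276.6 down to 4501.2 to 4621.9. Of the dividing-cell markers, Mki67 changed by -3.79 and Cdk1 by -3.25 in log2, and the part of this shift in the fall of the repair genes was not tested. The myoblast and satellite cell list summed to 6075.7 to 6941.3 on proliferating and 9699.9 to 10120.1 on differentiated arrays. Most of the rise of this sum came from Des, with means of 4299 and 7560, which passed as higher (0.82). The authors count Des among their markers of terminal myogenic differentiation. Myod1 (0.28) and Myf5 (-0.10) did not pass, and Pax7 was at background throughout. Of the markers of other cell types, the adipocyte list, with 3 of 4 measured, summed to 743.4 to 1241.7 on proliferating and 2581.4 to 3207.2 on differentiated arrays. Lpl passed as higher, and Adipoq was at background but for 1 array. Fabp4 did not pass (1.06), at background on all proliferating and above it on 2 differentiated arrays. The macrophage list went from 444.2 to 475.0 up to 583.3 to 603.2. In it Adgre1 was higher, Cd68 (0.10) and Csf1r (0.39) did not pass, and Ptprc was at background on all differentiated arrays. For the osteoblast list, with 2 of 4 measured, and the endothelial list, the ranges of both groups overlapped. Their part in the results was not tested either.

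Among the 18 genes of homologous recombination and the Fanconi pathway, 9 were lower, 9 did not pass and all 18 fitted values were below 0, with a median log2 fold change of -1.19. Bard1, at background throughout, is counted in these numbers, with a fitted value of -0.39. Fignl1, an AAA ATPase of homologous recombination, had the largest fitted fall of all 49 genes, except with the mean over all probe sets of a gene, where it had -2.23 and Rad51ap1 -2.33. Its signals were 721, 745 and 817 on the proliferating arrays and 66.8, 14 and 16.5 on the differentiated ones. The groups lay far apart, and on the differentiated side 1 array was above its background. Fignl1 fell by 4.20 in log2 (standard error, SE, 0.35, adjusted p = 3.4e-06, limma). A second, dim probe set of the gene averaged 65.0 and 56.1 and did not pass (-0.25).

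Since the promoter is the sequence through which genes of the cell cycle are often regulated together, the RefSeq promoter window of the gene with the largest fall is printed for each repair group, from 250 bases before to 50 bases after the annotated start, on the strand of the gene and in GRCm38.p6. For Fignl1 it is chr11:11808913-11809212 on the minus strand, and the capitals mark an E2F core, TTCCCGCG, that begins 117 bases before the start. This core was added to the search after the windows had been read.
Fignl1: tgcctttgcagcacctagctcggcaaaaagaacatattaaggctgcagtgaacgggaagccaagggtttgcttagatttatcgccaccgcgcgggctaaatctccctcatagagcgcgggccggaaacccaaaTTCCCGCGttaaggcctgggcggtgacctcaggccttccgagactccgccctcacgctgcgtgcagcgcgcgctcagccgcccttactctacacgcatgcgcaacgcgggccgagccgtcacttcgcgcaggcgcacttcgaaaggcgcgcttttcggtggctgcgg

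Rad51ap1, which promotes the pairing of DNA strands, had signals of 334, 406 and 309 in proliferating cells and of 37.7, 7.80 and 35.6 in differentiated cells. All 3 differentiated arrays were at background, which makes the fall at least 5.88-fold (adjusted p = 6.7e-05, limma), and 2 of its 3 other probe sets passed in the same direction. Rad54l, a DNA-dependent motor protein of strand exchange, had signals of 323, 329 and 204 against 36.7, 11.3 and 60.2. Of these differentiated arrays 1 was above background, and the log2 fold change was -2.65 (SE 0.41, adjusted p = 0.00064, limma). The 3 other probe sets of Rad54l, of which the brightest averaged 55.1 and 38.8, did not pass, and with the mean over all 4 the change was -0.91 (adjusted p = 0.068, limma).

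Brca1, the tumour suppressor that promotes the resection of broken ends, went from 585, 448 and 468 to 51.9, 66.1 and 92.1. The groups did not overlap and 1 differentiated array stayed above background. Its log2 fold change was -2.62 (SE 0.23, adjusted p = 5.9e-06, limma), and 2 other probe sets fell by 2.44 and 2.02 while the last, at 84.3 and 88.4, had -0.01. Exo1, a nuclease of end resection that also serves mismatch repair, had 311, 262 and 313 in proliferating and 77.8, 70.8 and 33.3 in differentiated cells. Its log2 fold change was -2.09 (SE 0.30, adjusted p = 0.00036, limma), with a second probe set at -1.46 (adjusted p = 0.014).

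Fanca, a subunit of the Fanconi core complex, had signals of 250, 295 and 363 in proliferating cells. In differentiated cells they were 101, 161 and 95.8, all above background and all below the lowest proliferating value. Fanca fell by 1.26 in log2 (SE 0.24, adjusted p = 0.0033, limma), and by 0.66 with its second, dimmer probe set averaged in (adjusted p = 0.39). The next 3 calls were less firm. Blm, the Bloom syndrome helicase, had 162, 185 and 200 against 61.8, 105 and 30.6, a change of -1.39 in log2 (SE 0.37, adjusted p = 0.026, limma). Fancd2, whose ubiquitination is the central step of the pathway, had 264, 271 and 119 against 109, 88.9 and 64.7, a change of -1.13 in log2 (SE 0.33, adjusted p = 0.044, limma). Its lowest proliferating array, at 119, was close to its highest differentiated array, at 109.

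Brca2, a tumour suppressor of homologous recombination, had 354, 206 and 446 in proliferating and 130, 150 and 196 in differentiated cells, a change of -0.97 in log2 (SE 0.26, adjusted p = 0.029, limma). These 3 genes did not pass when certain single arrays were left out. For Blm this held without proliferating replicate 1, 2 or 3 (-1.47, -1.38 and -1.33) and without differentiated replicate 1 or 3 (-1.41 and -1.03). For Fancd2 it held without proliferating replicate 1 or 2 (-0.96 and -0.94) and without differentiated replicate 1, 2 or 3 (-1.28, -1.15 and -0.96). For Brca2 it held without proliferating replicate 1 or 3 (-0.90 and -0.74) and without differentiated replicate 1 or 2 (-0.84 and -0.94).

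**Figure D2:**
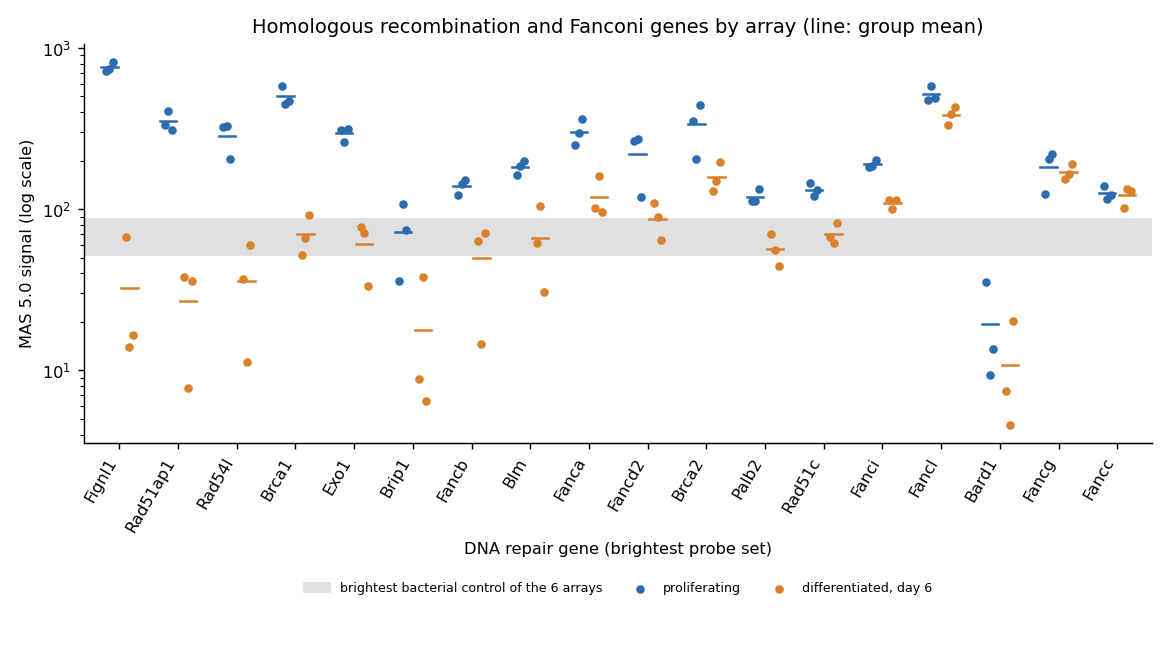
MAS 5.0 signal on each of the 3 proliferating (blue) and 3 differentiated (orange) arrays, on a log axis, for the brightest probe set of the 18 homologous recombination and Fanconi genes, ordered by their change, with lines at the group means. The grey band runs from 51.9 to 87.0, the background limits of the arrays, and the differentiated values of Fignl1 and Rad51ap1 reach below it while their proliferating values lie between 309 and 817.

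The other genes of this group did not pass. Brip1, the helicase partner of Brca1, and Fancb, of the core complex, had fitted log2 fold changes of -1.45 and -1.39 with SEs of 0.54 and 0.45 (adjusted p = 0.11 and 0.067, limma). Brip1 was at background on all 3 differentiated arrays and on 1 proliferating array. Against background its fold was at least 1.11, and the fitted value beyond that rests on signals at background. Palb2, which links Brca1 to Brca2, was at -0.92, Rad51c at -0.79 and the ubiquitin ligase Fancl at -0.42 (adjusted p = 0.13, 0.15 and 0.08). Palb2, Rad51c, Fancb, Fancl and the brighter probe set of Fanci had groups that did not overlap. Of all 18193 genes, 15.5% had every differentiated array below every proliferating one. For Fanci, the partner of Fancd2, the brighter probe set had -0.72 (adjusted p = 0.065), and a dimmer one, at 131, 52.5 and 60.6 against 3.30, 4.30 and 9.10, passed with -2.15 (adjusted p = 0.0075). Fancc and Fancg, both of the core complex, had -0.05 and -0.07, and their groups overlapped.

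In mismatch repair, 2 of 3 genes were lower. Pms2, an endonuclease subunit of mismatch repair, gave 327, 216 and 300 in proliferating cells. In differentiated cells it gave 13.3, 18.4 and 14.8, all at background, so that it was at least 4.68-fold lower (adjusted p = 4.8e-05, limma). A second probe set of Pms2 averaged 91.5 and 75.4 and did not pass (-0.27), and a last one was at background throughout. With all 3 averaged, Pms2 still passed, at -1.16 (adjusted p = 0.017, limma). The Pms2 window, chr5:143909751-143910050 on the plus strand, has 3 matches to the CCAAT box, in capitals, which begin 153, 108 and 33 bases before the start, the first of them in reverse.
Pms2: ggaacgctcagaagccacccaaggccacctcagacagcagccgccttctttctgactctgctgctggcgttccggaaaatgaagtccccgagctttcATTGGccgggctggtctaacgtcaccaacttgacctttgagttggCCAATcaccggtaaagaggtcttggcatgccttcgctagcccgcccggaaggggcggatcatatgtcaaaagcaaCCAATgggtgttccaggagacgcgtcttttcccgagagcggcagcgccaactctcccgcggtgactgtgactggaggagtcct

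Msh6, which recognises single mispaired bases, had 606, 531 and 593 in proliferating and 251, 203 and 196 in differentiated cells. Its 3 differentiated arrays were all above background and below every proliferating array. The log2 fold change was -1.36 (SE 0.15, adjusted p = 4e-05, limma). Msh3, which recognises larger loops, was dim, with 2 proliferating arrays and no differentiated array above background, and did not pass (-1.25, adjusted p = 0.12). Against background its fold was at least 1.33.

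Of the 8 genes of base excision repair 3 were lower, none passed as higher and the median was -0.39. Neil3, a DNA glycosylase known from dividing cells, had signals of 193, 351 and 287 against 110, 131 and 78.1. The lowest proliferating array was above all 3 differentiated ones, and Neil3 fell by 1.25 in log2 (SE 0.27, adjusted p = 0.0071, limma). It did not pass with its second, dim probe set averaged in (-0.76, adjusted p = 0.087) or with eBayes without trend (adjusted p = 0.062). Its window, chr8:53639016-53639315 on the minus strand, holds none of the motifs searched.
Neil3: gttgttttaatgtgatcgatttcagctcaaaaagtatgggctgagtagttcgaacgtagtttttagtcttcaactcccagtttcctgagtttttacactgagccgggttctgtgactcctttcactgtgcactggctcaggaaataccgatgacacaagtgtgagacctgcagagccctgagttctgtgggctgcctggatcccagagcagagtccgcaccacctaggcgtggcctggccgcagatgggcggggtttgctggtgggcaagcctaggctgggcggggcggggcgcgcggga

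Apex1, the endonuclease that cuts at sites without a base, had 3856, 4609 and 3843 in proliferating and 2120, 1929 and 2081 in differentiated cells. Apex1 remained well above background on every array and its log2 fold change was -1.0 (SE 0.10, adjusted p = 1.9e-05, limma). Its 2 other probe sets also passed, at -0.96 and -0.85, and it was the 1 gene among the 49 with several probe sets of which all were called. Parp1, the sensor of single-strand breaks, had 1268, 1249 and 1248 against 769, 693 and 817, a change of -0.72 in log2 (SE 0.10, adjusted p = 0.00032, limma). Of its 4 probe sets 3 were lower. The glycosylases Ung and Ogg1, at -0.37 and -0.41, and the scaffold Xrcc1, at -0.29, did not pass and had overlapping groups.

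Lig3, the ligase bound to Xrcc1, had 0.04 by its brightest probe set and -0.48, -0.51 and -0.58 by 3 others above background, of which none passed. Polb, the polymerase that fills the gap of a removed base, was in the opposite direction. Its signals were 672, 654 and 482 in proliferating and 912, 695 and 957 in differentiated cells, without overlap, and the fitted log2 fold change of 0.50 did not pass (SE 0.16, adjusted p = 0.057, limma). Another Polb probe set, with 377, 418 and 342 against 600, 438 and 792, passed as higher at 0.63 (adjusted p = 0.044).

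Nucleotide excision repair was the group with the most fitted values above 0, in 6 of 8 genes, with a median of 0.30. Among all genes 9928 of 18193 were above 0, with a median of 0.06. Ddb2, which recognises ultraviolet lesions in chromatin, was the 1 repair gene called higher. Its signals were 77.3, 37.8 and 55.4 on the proliferating arrays, all at background, and 97.4, 166 and 221 on the differentiated arrays, all above it. Ddb2 was therefore at least 2.31-fold higher, with a fitted log2 fold change of 1.27 (SE 0.39). The adjusted p of 0.0499 (limma) lay at the threshold, and Ddb2 did not pass without proliferating replicate 1, 2 or 3 (1.47, 1.07 and 1.27) or without differentiated replicate 2 or 3 (1.22 and 1.03). Nor did it pass after quantile normalization (1.20, adjusted p = 0.064), and its second probe set had 0.39 (adjusted p = 0.67).

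Xpa and Xpc, which verify and detect the lesion, had higher signals on every differentiated array than on any proliferating one. For Xpa these were 148, 184 and 169 against 219, 252 and 403, and for Xpc 152, 177 and 212 against 306, 276 and 254. Their log2 fold changes of 0.71 and 0.60 did not pass (adjusted p = 0.069 and 0.064, limma). Ercc5, the nuclease that cuts 3′ of the lesion, also had groups without overlap and did not pass (0.41, adjusted p = 0.33). The helicases of TFIIH, Ercc2 and Ercc3, had 0.18 and -0.19, with the Ercc2 signals of proliferating cells spread from 30.6 to 196. Ddb1, the bright partner of Ddb2, went from 3643 ± 107 to 4031 ± 276 (SD, n = 3 each) and did not pass (0.14, adjusted p = 0.42, limma).

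Ercc1, the partner of the nuclease that cuts 5′ of the lesion, was the 1 gene of this group that was lower. It had 864, 1174 and 824 in proliferating and 345, 480 and 618 in differentiated cells, with a change of -0.99 in log2 (SE 0.19, adjusted p = 0.0037, limma). A second probe set of Ercc1 also passed, at -0.71. With its 2 dim probe sets averaged in as well, the change was -0.60 (adjusted p = 0.13, limma). In the Ercc1 window, chr7:19344821-19345120 on the plus strand, none of the motifs searched was found.
Ercc1: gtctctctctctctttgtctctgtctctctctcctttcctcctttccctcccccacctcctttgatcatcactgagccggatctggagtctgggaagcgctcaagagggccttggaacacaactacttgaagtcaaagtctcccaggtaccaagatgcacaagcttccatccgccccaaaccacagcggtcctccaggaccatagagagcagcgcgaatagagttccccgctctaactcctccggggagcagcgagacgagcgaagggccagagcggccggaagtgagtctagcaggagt

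In end joining, 1 of 5 genes was lower, none was higher and the median was 0.20. Xrcc6 (Ku70), a subunit of the ring that holds broken ends, had 732, 804 and 767 in proliferating against 618, 547 and 609 in differentiated cells, without overlap, a change of -0.37 in log2 (SE 0.11, adjusted p = 0.045, limma). The call was lost without any 1 of the 6 arrays, at -0.32 to -0.40 in log2. Xrcc5 (Ku80), its partner in the ring, had 918, 894 and 894 against 811, 549 and 767 and did not pass (-0.36, adjusted p = 0.13). Prkdc, the kinase that the ring recruits, had 0.20. Xrcc4 and Lig4, which form the ligase complex, had 0.39 and 0.53, and none of these 3 passed (adjusted p = 0.72, 0.3 and 0.29). In the Xrcc6 window, chr15:82016119-82016418 on the plus strand, the capitals mark a CCAAT box in reverse that begins 28 bases after the start.
Xrcc6: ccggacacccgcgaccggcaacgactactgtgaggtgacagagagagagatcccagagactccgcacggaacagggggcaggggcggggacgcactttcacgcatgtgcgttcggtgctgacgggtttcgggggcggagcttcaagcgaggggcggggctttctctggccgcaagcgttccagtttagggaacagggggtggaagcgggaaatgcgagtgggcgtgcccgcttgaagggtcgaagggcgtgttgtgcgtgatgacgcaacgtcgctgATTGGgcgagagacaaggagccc

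In damage signalling 3 of 7 genes were lower, none was higher and all 7 fitted values were below 0, with a median of -0.73. Chek1, the checkpoint kinase activated by Atr when replication stalls, gave 232, 135 and 129 in proliferating cells. In differentiated cells it gave 57.1, 8.7 and 8, and 1 of these was above background. Chek1 fell by 2.36 in log2 (SE 0.52, adjusted p = 0.0087, limma), and without proliferating replicate 1 it did not pass (-2.11, adjusted p = 0.058). Of its 4 other probe sets 1 passed, at -1.66, and 2 were at background on all arrays. With all 5 averaged, Chek1 had -1.0 (adjusted p = 0.043, limma). Its window, chr9:36726609-36726908 on the minus strand, ends in an E2F core in reverse, in capitals, that begins 43 bases after the start. This core too was added to the search after the windows had been read.
Chek1: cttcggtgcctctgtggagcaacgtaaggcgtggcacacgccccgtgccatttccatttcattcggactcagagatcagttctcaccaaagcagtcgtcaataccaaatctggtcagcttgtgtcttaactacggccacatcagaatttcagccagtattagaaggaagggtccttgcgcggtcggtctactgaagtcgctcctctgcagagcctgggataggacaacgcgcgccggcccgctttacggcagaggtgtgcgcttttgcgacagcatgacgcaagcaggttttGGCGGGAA

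Chek2, the checkpoint kinase downstream of Atm, had 318, 282 and 301 in proliferating and 142, 113 and 142 in differentiated cells, a change of -1.10 in log2 (SE 0.19, adjusted p = 0.0018, limma). Mre11a, the nuclease of the complex that detects broken ends, had 370, 352 and 308 against 206, 138 and 150, a change of -1.01 in log2 (SE 0.19, adjusted p = 0.0033, limma). Both were above background on every array and had groups that did not overlap. The other subunits of the Mre11a complex, Rad50 and Nbn, had -0.44 and -0.25 and did not pass (adjusted p = 0.11 and 0.48). Nor did the apical kinases Atm and Atr, at -0.73 and -0.18 (adjusted p = 0.12 and 0.72), and a second probe set of Atm had 0.06. The groups of Rad50, Nbn, Atm and Atr overlapped.

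**Figure D3:**
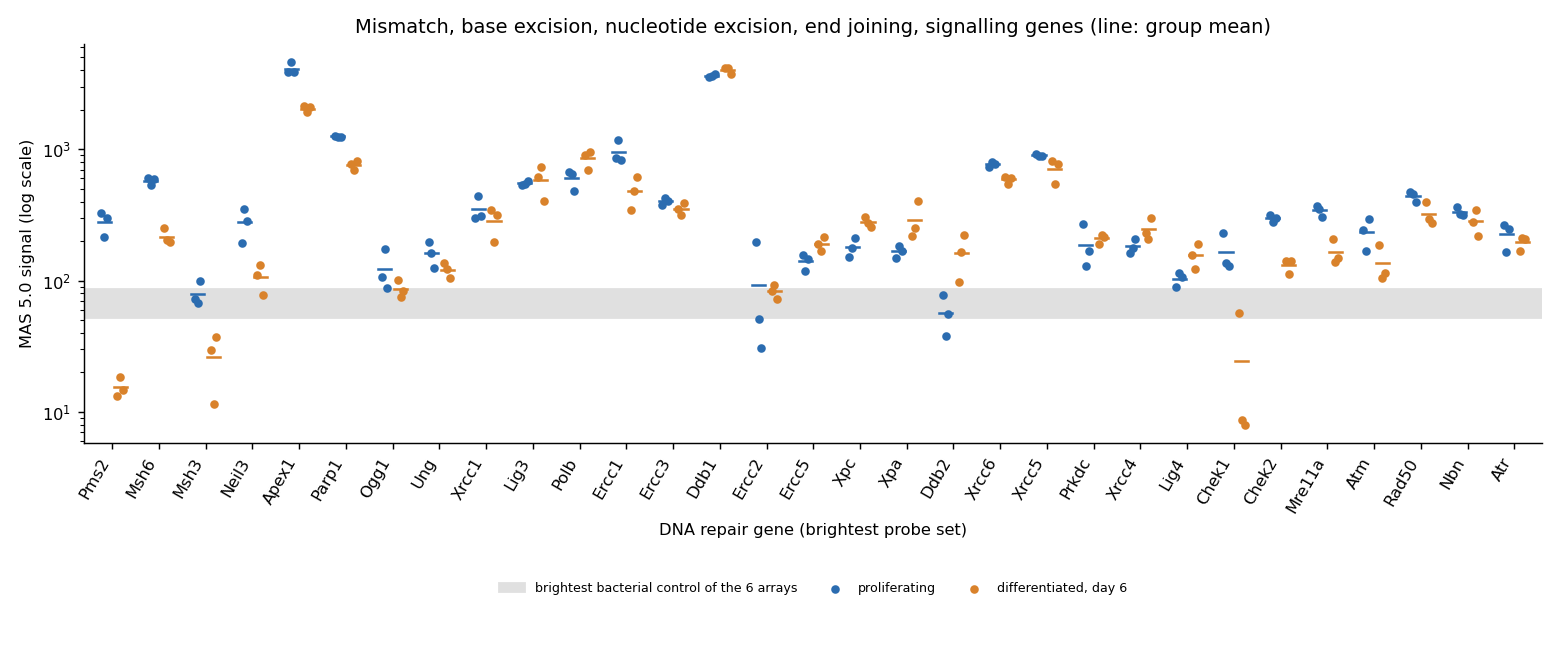
MAS 5.0 signal on each proliferating (blue) and differentiated (orange) array, on a log axis, for the brightest probe set of the 31 genes outside homologous recombination and Fanconi, grouped by repair route, with lines at the group means and the grey band as the background limits. Pms2 and 2 of the 3 Chek1 arrays lie below the band in differentiated cells, Ddb2 crosses it upwards, and Apex1, the lowest of whose values was 1929, and Ddb1 lie far above it on every array.

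Groups without overlap were frequent among the repair genes. In 26 of the 49 every differentiated array was below every proliferating one, compared with 15.5% of all 18193 genes, in 6 every differentiated array was above, compared with 18%, and in 17 the arrays overlapped. Those above were Polb, Xpa, Xpc, Ercc5, Ddb2 and Lig4, of which Ddb2 alone passed the test. The differences between the repair groups themselves were not tested, since the genes of a group are not replicates.

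**Figure D4:**
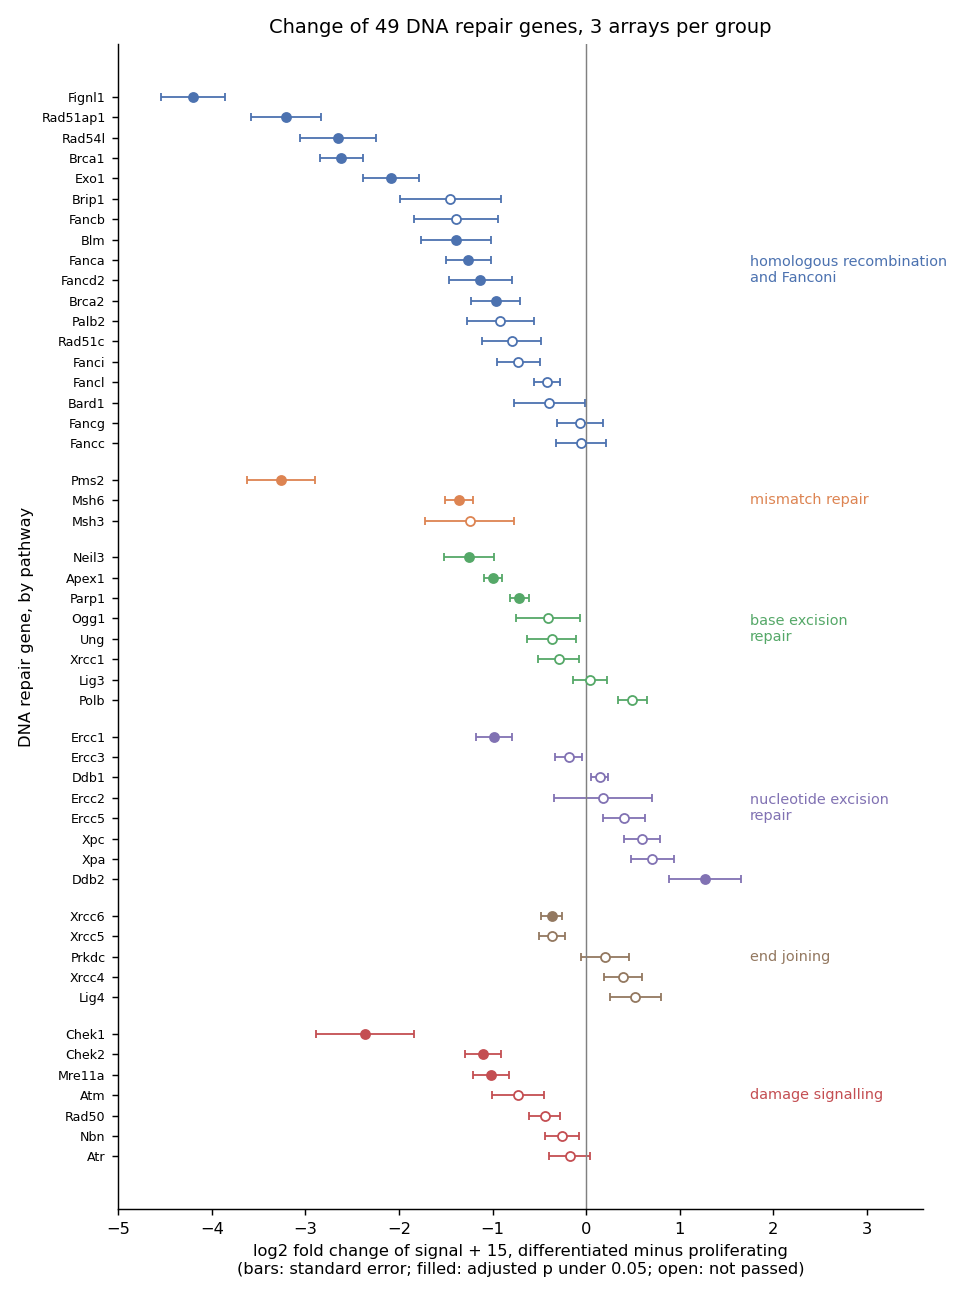
Log2 fold change of the signal plus 15, differentiated minus proliferating, with its standard error, for the 49 repair genes by repair route. Filled points passed at an adjusted p under 0.05 (19 lower, 1 higher) and open points did not, and the values run from -4.20 for Fignl1 to 1.27 for Ddb2.

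Seen over all 110 probe sets, 31 were lower and 2 higher at an adjusted p under 0.05, compared with 6.43% and 6.14% of the 45037 probe sets. The 2 higher ones belong to Ddb2 and Polb. Several probe sets represent 33 of the genes, up to 5 each, and no gene had probe sets called in both directions. Of the 110, 15 were at background on all 6 arrays, and for Rad54l, Fanca, Fancd2, Fignl1, Pms2, Neil3, Xrcc6, Ddb2 and Mre11a no other probe set repeated the call of the brightest. In proliferating cells the second probe set averaged 48.5 for Fanca, 65.0 for Fignl1 and 53.3 for Neil3, near the background limits, and 144 for Mre11a.

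**Figure D5:**
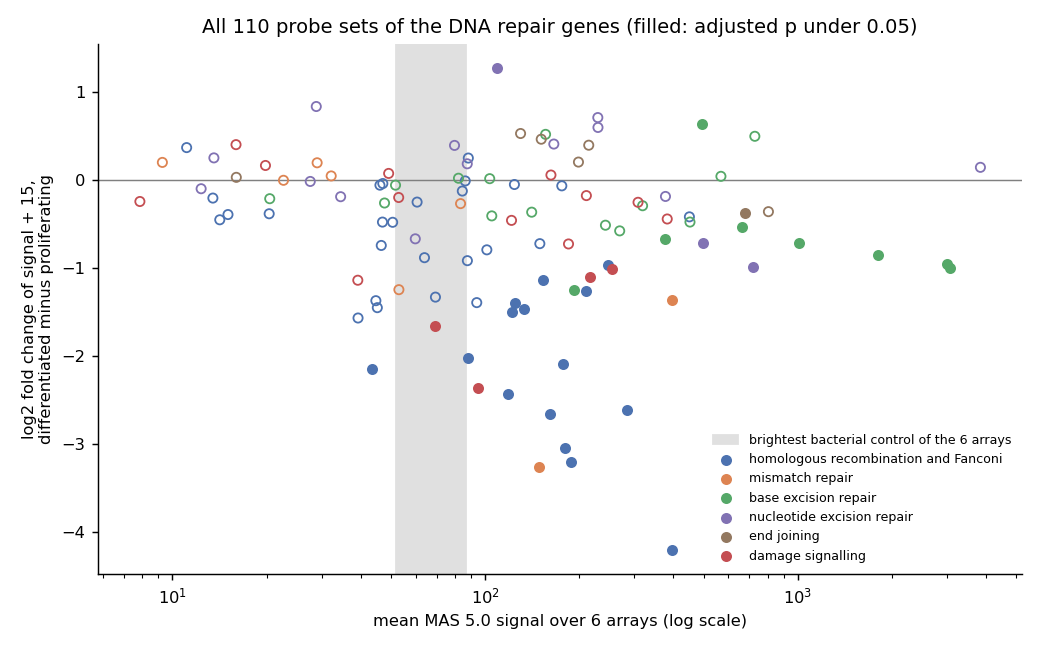
Log2 fold change of the signal plus 15 against the mean MAS 5.0 signal over the 6 arrays, on a log axis, for the 110 probe sets of the repair genes, coloured by repair route. Filled points passed at an adjusted p under 0.05 (31 lower, 2 higher), and the grey band gives the background limits, 51.9 to 87.0.

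Of a further 97 genes of the same routes and of translesion synthesis and direct reversal, 84 have a probe set of their own, and of these 19 were lower (22.6%), 3 higher (3.6%) and 62 did not pass, compared with 9.05% lower and 8.67% higher among all genes. Base excision repair held 5 of the lower genes among 13, damage signalling 5 of 15, nucleotide excision repair 4 of 15, homologous recombination and Fanconi 3 of 22, and translesion synthesis and direct reversal 2 of 12, while mismatch repair and end joining held none among 2 and 5. Each gene was counted in 1 route, also where it serves replication, as Lig1 does. The 4 of nucleotide excision repair were Rpa1 (-1.36), Rpa2 (-0.87), Rpa3 (-1.19) and Gtf2h4 (-0.48). The 5 of base excision repair were Mutyh, Mpg, Parp2, Fen1 and Lig1. In homologous recombination and Fanconi the members lower were thus 9 of 18 (50%) and the further genes 3 of 22 (13.6%), which is closer to the share of all genes. The 3 higher were Parp3 (1.10), a poly(ADP-ribose) polymerase, the ubiquitin-conjugating enzyme Ube2b (0.59) and the centrin Cetn2 (0.40).

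The 6 largest changes among these genes were all falls. Timeless and Tipin, which form the complex that protects the fork, changed by -3.57 and -1.87, with 1 of 3 differentiated arrays above background for Timeless. Clspn, the adaptor through which Atr activates Chek1, had 403 ± 47.7 against 84.8 ± 17.9 (SD, n = 3 each), which is -2.07 in log2 (adjusted p = 2.5e-05, limma). Lig1, the replicative ligase that also seals long-patch base excision repair, had 922 ± 55 against 216 ± 32.2, and Lig1 changed by -2.03 (adjusted p = 6.8e-07, limma). Eme1, a subunit of a junction-cutting nuclease, and the helicase Recql4 were at background on all differentiated arrays and at least 4.50-fold and 2.91-fold lower.

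Motifs of cell cycle promoters were looked for on both strands of the 40 RefSeq windows that match a member, 17 of them of genes called lower. The E2F sites TTTGGCGC or TTTCGCGC were in 0 of these 17 and in 2 of the 23 others (Rad51c and Msh3), and in 1.45% of 14452 genes of the array with a window. The CHR element TTTGAA was in 0 of 17 and 2 of 23, compared with 15.7%. A CCAAT box, CCAAT, was in 11 of 17 (64.7%) and 11 of 23 (47.8%), compared with 42% of the array's genes. The E2F cores TTCCCGCC and TTCCCGCG are different runs of letters, as long as the E2F sites, and were added after the windows had been read. Either core was in 5 of 17 (29.4%: Rad51ap1, Fignl1, Msh6, Chek1 and Chek2) and in 4 of 23 (17.4%: Rad51c, Fancb, Fancg and Ercc5), compared with 5.54%. Both cores differ only in their last letter. A match is a run of letters and not a bound site, and a window without one says only that these letters are not in it.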

How the data were processed

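C2C12 cells in 20% serum and on day 6 in 2% serum were each measured on 3 Affymetrix mouse genome arrays. The authors deposited linear intensity values, the signals of MAS 5.0, which have a trimmed mean of about 249.9 on every array. The methods applied GCRMA afterwards, which needs probe-level data and was not repeated, so small differences here may depend on the MAS 5.0 background correction. No further normalization was done, since array medians lay between 68.0 and 81.4. After 64 control probe sets were left out, log2(signal + 15) of 45037 probe sets went into lmFit and eBayes with trend of limma 3.58.1 (R 4.3.3), 2-sided and adjusted by Benjamini-Hochberg, from which all adjusted p-values come. The script was tested on simulated data. Python 3.11.15, pandas 2.3.3, numpy 2.4.6 and, for figures, matplotlib 3.10.9 did the rest.

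Genes are named by the platform annotation, in which 34945 probe sets have 1 symbol, 932 several and 9160 none here. A gene is represented by its probe set with the highest mean signal. Named with the signal on every array are, among those that passed, up to 8 genes of homologous recombination and Fanconi and up to 4 of each other route with the largest change, then any gene that is higher. The rest, and 6 of the further repair genes, are named without the signal on every array. Brca2, Polb, Xpa, Xpc, Xrcc5 and a Fanci probe set are given with it beyond that rule, chosen after their values were seen. A fold against a group wholly at background is a lower bound, taken from the logs of the signals without a pseudocount, with each dim array at the higher of its own background and the probe set's signal. Members and gene lists were chosen with earlier results of these data known, as was the background limit. Of 97 further repair genes, 13 without a probe set of their own are not analysed here. Promoter windows are those of RefSeq (GRCm38.p6), matched for 40 members. For Exo1, Fancd2, Polb, Xpc, Ercc3, Ddb2, Prkdc, Rad50 and Nbn none was printed or searched. Alternatives changed normalization, pseudocount, dim probe sets, variance model, test, pairing, arrays, thresholds and choice of probe sets. The number of arrays limits the precision of every value.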

Additional observations from a re-analysis of the deposited data

How the results depend on the processing

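Of the 20 repair genes called, 9 passed under all 18 alternatives: Rad51ap1, Brca1, Exo1, Fignl1, Msh6, Pms2, Apex1, Chek2 and Mre11a. No called gene changed direction, while the fitted sign of 5 genes that were not called (Fancc, Fancg, Lig3, Ercc2 and Prkdc) turned in some alternative. With eBayes without trend, 11 genes were lower in place of 19, with 1 in base excision and 0 in nucleotide excision repair, and of the further repair genes 1 was higher in place of 3. Leaving out 1 array at a time gave 14 to 16 lower genes and 0 to 1 higher, with 6 to 7 lower in homologous recombination, 0 to 0 in end joining and 2 to 4 in damage signalling, and 15 to 18 lower and 2 to 3 higher among the further genes. The 1 higher gene became 0 after quantile normalization, scaling to the 75th percentile, a pseudocount at the 40th percentile (49.6), eBayes without trend, the replicate block and an adjusted p under 0.01, became 4 without dim probe sets and 3 with the regularized test. With the mean over probe sets it was 1 again, but Xpc in place of Ddb2 (0.83), whose call was lost in 12 of the 18 alternatives. The regularized test took its cut-offs from the methods, an unadjusted p under 0.05 and 1.5-fold, but ran here on MAS 5.0 signals without GCRMA. It gave 14 lower genes of homologous recombination in place of 9. The 1 lower end joining gene became 0 after quantile normalization, with a pseudocount of 1, without trend, with the regularized test, the replicate block, a 1.5-fold limit, an adjusted p under 0.01 or the mean over probe sets, which also gave 0 for nucleotide excision repair. Without probe sets ending in _x_at or _s_at, 1 further gene was higher. The median of all genes was 0.06, 0.01 after quantile normalization and 0.02 after scaling. Over all probe sets, arrays of the same number did not deviate together (correlations of 0.012, 0.001 and 0.009). Many probe sets are near background, so these values cannot exclude a pairing of the arrays. The replicate block changed no call of a member but those of Ddb2 and Xrcc6. Signals near background and 3 arrays per group limit the dim genes most.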
